A study of Mus musculus with 4 samples.

Results

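The genes described here are 57 genes of the actin cytoskeleton and of the annexin family, listed by symbol: actins, calponins and transgelins, tropomyosins, non-muscle myosin subunits, filamins, bundling proteins, membrane linkers, monomer-binding and severing proteins, annexins with their S100 partners, focal adhesion proteins, the serum response factor (SRF) with its cofactors, and in addition titin and transglutaminase. A gene was taken as measured where a probe set of the array carried its symbol and no other, which held for 56 of the 57, among 18193 genes measured in all. S100a11 was not analysed, because its probe set is annotated to several genes. The cells were E14, a line of mouse embryonic stem (mES) cells grown in serum and LIF, and total RNA was hybridised to Affymetrix mouse genome expression arrays, 1 colour, with 2 arrays per group. The Zfp322a RNAi cells were transfected with a plasmid expressing a short hairpin RNA against Zfp322a, which encodes a zinc finger protein, and the control RNAi cells received the pSuper.puro vector. Both groups stayed under puromycin for 3 days per the labels, and which hairpin sequence was used for the arrays is not given there.

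Actin monomers assemble into filaments that are turned over by severing and monomer-binding proteins, crosslinked by filamins and alpha-actinins, covered by tropomyosins and calponins, pulled on by non-muscle myosin II and anchored to integrins at focal adhesions. Annexins bind acidic phospholipids in the presence of calcium and connect membranes with this cortical actin. The stock of free actin monomer also feeds back on transcription, because monomers hold the cofactors Mkl1 and Mkl2 in the cytoplasm, and once released these bind SRF on CArG boxes in the promoters of many cytoskeletal genes.

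Values are log2 RMA levels, which are background-corrected, quantile-normalised and summarised per probe set by the authors. Each change is the mean log2 level in Zfp322a RNAi minus that in control RNAi, with the standard error (SE) from limma, for the probe set of each gene with the highest mean. A gene was called at a Benjamini-Hochberg adjusted p under 0.05 over all genes, two-sided. The array medians lay between 6.07 and 6.11. Over 45037 probe sets, arrays of the same group correlated at 0.998 and arrays of different groups at 0.989 to 0.990 (Pearson's r). The number of arrays limits the precision. Separate cultures for the samples of a group are not stated in the labels, and a p-value therefore measures only the spread between these samples, which may be technical. In RNA from whole cultures, fewer cells of a type and less RNA per cell cannot be told apart.

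Zfp322a itself gave 8.75 and 8.84 in control cells and 7.53 and 7.13 in Zfp322a RNAi cells, so that 36.2% of the control level remained (-1.47 ± 0.14, adjusted p = 0.00158 with limma). On its second probe set 27.4% remained (-1.87 ± 0.09, adjusted p = 0.000935 in the limma fit of all probe sets).

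Because the list holds SRF together with genes known as its targets, the CArG boxes in the promoters of the members are shown before the values. RefSeq promoter windows (assembly GRCm38.p6, 250 bases before to 50 bases after an annotated start) were given for 49 of the 57 members and were searched on both strands for the CArG box in its exact form. Actb, Actg2, Tagln, Anxa3, Anxa6, S100a10, Pxn and Tgm2 had no window, so that their promoters were not searched. The box was found in 9 of the 49 members with a window (18.4%) and in 488 of 27025 genes with a window (1.81%). The stretches of 6 members follow, each read on the strand of its gene with the box in capitals, 4 from members that fell and 2, Actg1 and Lima1, from members that did not pass the test.
Cnn2: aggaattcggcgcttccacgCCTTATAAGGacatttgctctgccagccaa
Vcl: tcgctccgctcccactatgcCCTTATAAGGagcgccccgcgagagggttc
Srf: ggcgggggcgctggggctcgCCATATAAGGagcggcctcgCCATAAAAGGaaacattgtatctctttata
Vil1: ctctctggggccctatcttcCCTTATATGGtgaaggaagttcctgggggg
Actg1: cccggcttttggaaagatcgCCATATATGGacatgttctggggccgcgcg
Lima1: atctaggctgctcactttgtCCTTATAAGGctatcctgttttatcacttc
The stretch of Cnn2 lies at chr10:79988524-79988573 on the plus strand, with the box starting 56 bases before the start of the gene. Those of Vcl (chr14:20929151-20929200, 227 bases) and Vil1 (chr1:74409291-74409340, 73 bases) are on the plus strand too. Srf, which has boxes 82 and 62 bases before its start (chr17:46556195-46556264), Actg1 (chr11:120348556-120348605, 90 bases) and Lima1 (chr15:99820167-99820216, 47 bases) are on the minus strand. Cnn2, Vcl and Lima1 carry the same letters in the box. The other members with a box were Myl9, Myl6 and Anxa5, the last with its box 25 bases past the start. Of the 9 members with a box, 5 fell and 0 rose, with a median change of -0.34. Of the 39 measured members with a window and no box, 12 fell and 2 rose, with a median of -0.20. Of all 18193 genes, 14.4% fell and 14% rose, and of all measured members 33.9% fell and 3.57% rose. These matches describe the letters of the windows and are not sites of measured binding, and the difference between the members with and without a box was not tested.

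Of the 56 measured members, 19 fell (33.9%) and 2 rose (3.57%) in the Zfp322a RNAi cells, where 14.4% of all 18193 genes fell and 14% rose. The falls belonged to 9 of the classes, with the annexins at 4 of 7 and the monomer-binding and severing proteins at 3 of 6. No actin, no myosin subunit and no S100 partner passed the test, though Actb, Myh9, Myh10, Myl12b and S100a10 did so under some other settings, given with their classes. The risers were radixin and titin. A fall of at least 1.5-fold that also passed the test was found for 10 members (17.9%, against 3.18% of all genes), and such a rise for Ttn alone (1.79%, against 5.03%). Because the members were chosen with earlier results of these data known, these shares and those that follow describe the list and test nothing.

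Over all 56 members, those called included, the change lay below 0 in 42 (75.0%, against 57.3% of all genes) and above 0 in 14, and the median was -0.215, against -0.040 over all genes. Both Zfp322a RNAi arrays lay below both control arrays in 35 members (62.5%, against 35.8% of all genes), and above both in 6 (10.7%, against 26.8%). The 35 members that did not pass lay nearer to the other genes, with a median of -0.065, a change below 0 in 23 (65.7%) and both arrays below in 16 (45.7%). The genes of the whole array that did not pass had a median of -0.040, with 59.9% below 0 and both arrays below in 29.9%. Members had a median level of 9.15 and all genes of 7.06, and genes at or above that median were called more often. Among genes at or above it, 17 of 45 members fell (37.8%, against 21.3% of 9103 genes) and 1 rose (2.22%, against 22.8%). The threshold rested on all 4 arrays: without any 1 of them limma called 0 of 18193 genes in either direction, and 23 to 28 members (41.1% to 50.0%, against 28.3% to 31.7% of all genes) had an unadjusted p under 0.05. With all arrays 33 members had one (58.9%, against 39.5% of all genes).

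**Figure D1:**
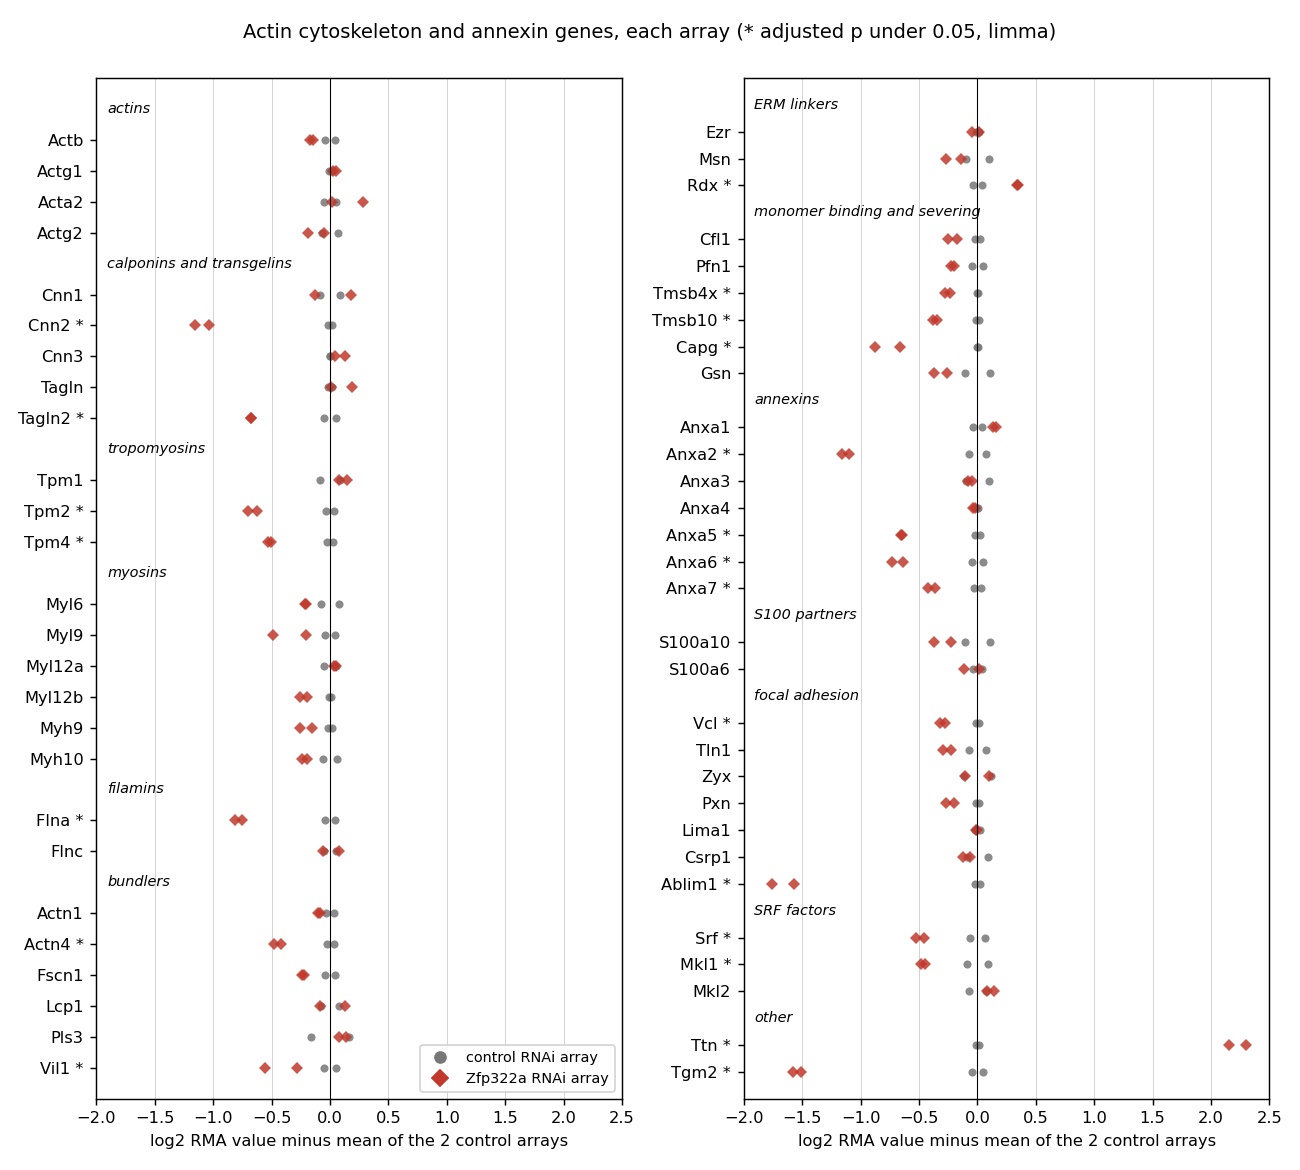
Each of the 56 measured members by class, with the log2 RMA value of every array minus its gene's mean over the 2 control arrays on the horizontal axis, circles for control RNAi and diamonds for Zfp322a RNAi. Asterisks mark the 21 members with an adjusted p under 0.05 in limma, and their groups do not overlap.

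**Figure D2:**
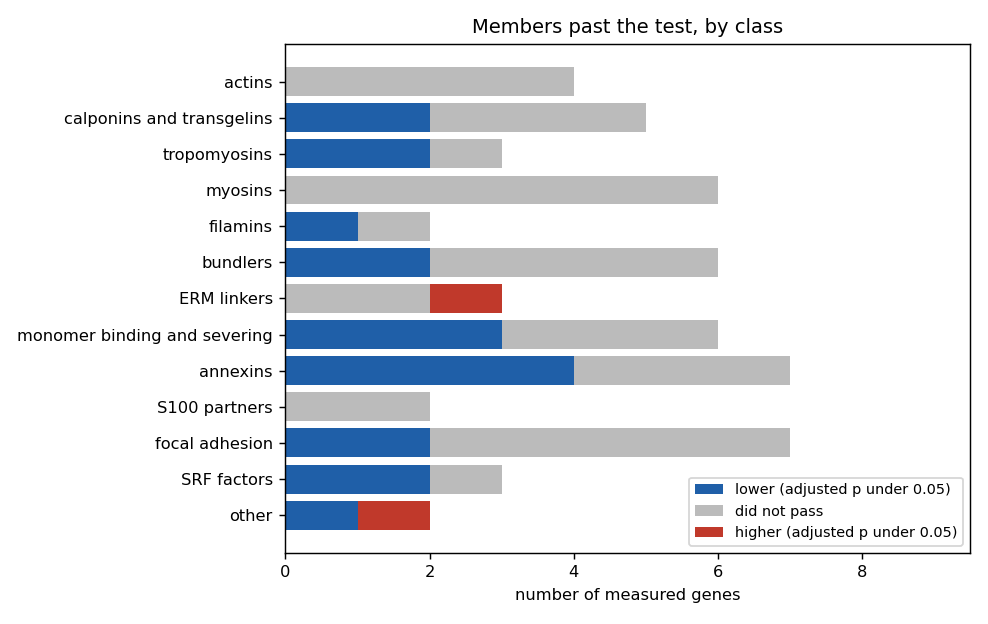
Number of measured members of each class that fell, did not pass, or rose at an adjusted p under 0.05 in limma. The annexins hold the most falls, 4 of 7, and the actins, myosins, ERM linkers and S100 partners hold none.

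The actins themselves, the subunits of the filament, did not pass the test. Actb, cytoplasmic beta-actin, gave 14.02 and 14.10 in control cells and 13.89 and 13.91 in Zfp322a RNAi cells (-0.16 ± 0.07, adjusted p = 0.15 with limma). The groups did not overlap, and the 95% interval of the change ran from -0.33 to 0.01. Actb passed with a variance trend (adjusted p = 0.0109 with limma) and with low values left out (adjusted p = 0.0471 with limma), while its second probe set changed by 0.10 ± 0.08. Actg1, cytoplasmic gamma-actin, stood at 13.47 and 13.46 in control cells and at 13.49 and 13.52 in Zfp322a RNAi cells, a change of 0.04 with an interval from -0.12 to 0.20. The actins are closely related, so that probe sets of Actb and Actg1, or of Acta2 and Actg2, may share signal. The probe sets used for Actg1 and Acta2 are of a type open to cross-hybridization, and those of Actb and Actg2 are not. The smooth muscle actins Acta2 and Actg2 changed by 0.15 and -0.12, and the groups overlapped for each. The direction of Acta2 turned with the probe set: its 2 dimmer ones changed by -0.26 ± 0.10 and -0.26 ± 0.08, and the mean of all 3 by -0.12, none of them passing.

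Calponins and transgelins bind along the sides of actin filaments, and of the 5 measured, Cnn2 and Tagln2 fell. Cnn2, calponin 2, gave 9.49 and 9.46 in control cells and 8.44 and 8.32 in Zfp322a RNAi cells. It fell to 46.8% of the control level (-1.10 ± 0.08, adjusted p = 0.000984 with limma), and the groups were more than 1 log2 unit apart. Tagln2, transgelin 2, went from 10.37 and 10.48 to 9.75 on both Zfp322a RNAi arrays (-0.68 ± 0.07, adjusted p = 0.00231 with limma), and its second probe set changed by -0.67 ± 0.08. Cnn3, calponin 3, gave 13.03 on each control array and 13.16 and 13.07 on the others (0.08 ± 0.07, adjusted p = 0.431 with limma). The smooth muscle genes Cnn1 (0.02, adjusted p = 0.899 with limma) and Tagln (0.10, adjusted p = 0.46 with limma) showed overlapping groups. Whether the changes of these paralogs differ from each other was not tested.

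Tropomyosins are coiled coils that lie in the groove of the filament and govern which proteins can bind it. Tpm2 went from 9.12 and 9.19 to 8.45 and 8.53 and fell to 63.1% of the control level (-0.66 ± 0.07, adjusted p = 0.00237 with limma). Tpm4 gave 10.48 and 10.53, then 9.97 and 10, and fell to 69.7% (-0.52 ± 0.07, adjusted p = 0.00382 with limma). In both genes every Zfp322a RNAi array lay below every control array. Tpm1 depended on the probe set. Its probe set of highest level gave 9.04 and 9.21 in control cells and 9.20 and 9.27 in Zfp322a RNAi cells (0.11 ± 0.09), and a second changed by 0.11 as well, but another went from 7.09 and 7.10 to 6.37 and 6.30 (-0.76 ± 0.08, adjusted p = 0.00252 in the limma fit of all probe sets). The Tpm1 gene is known to give many isoforms, and the isoforms these probe sets detect are not given in the table used here.

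Non-muscle myosin II moves on these filaments, and none of its 6 measured subunits passed the test, although 5 of them had both Zfp322a RNAi arrays below both control arrays. The heavy chain genes Myh9 (9.21 and 9.24 against 9.07 and 8.97) and Myh10 (10.24 and 10.36 against 10.06 and 10.10) changed by -0.20 ± 0.07 and -0.22 ± 0.07, with adjusted p of 0.0882 and 0.0811 in limma. They passed after quantile normalization (adjusted p of 0.0357 and 0.0393 in limma), with a variance trend (0.0265 and 0.0116) and with low values left out (0.0232 and 0.0216). Neither gene passed under the remaining settings. The Myh9 probe set used is of a type open to cross-hybridization. Without such probe sets Myh9 changed by -0.095 (adjusted p = 0.452 with limma). Averaging the probe sets of a gene gave -0.176 for Myh9 and -0.077 for Myh10 (adjusted p of 0.124 and 0.398 in limma). Of the regulatory light chains, Myl9 changed by -0.34 ± 0.11 (adjusted p = 0.0627 with limma) and Myl12b by -0.22 ± 0.07 (adjusted p = 0.0566 with limma), which passed under 3 other settings with adjusted p of 0.00241 to 0.0156 in limma. The essential light chain Myl6 changed by -0.21 (adjusted p = 0.104 with limma). Myl12a, a near-identical copy of Myl12b whose probe sets may share signal with it, gave 12.39 and 12.29 in control cells and 12.37 and 12.39 in Zfp322a RNAi cells, which overlap (0.04 ± 0.07, adjusted p = 0.729 with limma).

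Filamins hold filaments together as orthogonal networks. Flna, filamin A, went from 9.90 and 9.98 to 9.19 and 9.13 and fell to 58.2% of the control level (-0.78 ± 0.07, adjusted p = 0.00156 with limma). The groups were separated by far more than the arrays of either group. Flnc, the filamin of muscle, gave 7.44 and 7.34, then 7.33 and 7.47, so that its groups overlapped (0.01 ± 0.08).

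Among the bundling proteins, Actn4 and Vil1 fell. Actn4, the non-muscle alpha-actinin 4, gave 12.09 and 12.15, then 11.64 and 11.70 (-0.45 ± 0.07, adjusted p = 0.00665 with limma). Vil1, villin of the microvillus, gave 6.14 and 6.04, then 5.53 and 5.81, which leaves 74.7% of the control level at a wider error (-0.42 ± 0.11, adjusted p = 0.035 with limma). Fscn1, fascin of filopodia, had non-overlapping groups of 13.17 and 13.09 against 12.91 and 12.89 and did not pass (-0.23 ± 0.07, adjusted p = 0.0576 with limma). Actn1, the other non-muscle alpha-actinin, changed by -0.10 ± 0.07 on its probe set of highest level and did not pass, whereas its dimmest probe set fell by 0.52 on the log2 scale (adjusted p = 0.0153 in the limma fit of all probe sets). The plastin genes Lcp1 and Pls3 changed by 0.02 and 0.11 with overlapping groups.

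The ERM proteins ezrin, radixin and moesin link filaments to the plasma membrane, and radixin was the only ERM gene that passed the test. Rdx gave 11.24 and 11.31 in control cells and 11.62 and 11.61 in Zfp322a RNAi cells and rose to 127% of the control level (0.34 ± 0.07, adjusted p = 0.0159 with limma). On the probe set used the groups did not overlap, but 2 further probe sets of Rdx, at 0.14 ± 0.16 and 0.03 ± 0.08, did not pass, and with the mean of its probe sets the change was 0.17 (adjusted p = 0.135 with limma). Ezr was at 10.95 and 10.93 against 10.95 and 10.89 (-0.02 ± 0.07). Msn gave 10.41 and 10.21 against 10.04 and 10.17 (-0.20 ± 0.10, adjusted p = 0.173 with limma). Its second probe set went the other way, from 5.92 on each control array to 6.31 and 6.16 (0.32 ± 0.09, adjusted p = 0.0501 in the limma fit of all probe sets), and the mean of both changed by 0.06. With a variance trend the first passed (adjusted p = 0.0491 with limma).

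All 6 measured genes for monomer binding and severing had both Zfp322a RNAi arrays below both control arrays, and 3 of them fell. Capg, which caps barbed ends, went from 7.52 and 7.53 to 6.86 and 6.65 and fell to 58.6% of the control level (-0.77 ± 0.09, adjusted p = 0.00276 with limma). The thymosins, which sequester monomers, fell as well. Tmsb4x gave 12.40 and 12.41, then 12.13 and 12.17 (-0.26 ± 0.07, adjusted p = 0.0366 with limma), and with each array centred on its median it missed the threshold (-0.22, adjusted p = 0.0574 with limma). Tmsb10 gave 14.07 and 14.09, then 13.70 and 13.73 (-0.36 ± 0.07, adjusted p = 0.0111 with limma). On 2 dimmer probe sets of Tmsb10 the falls were larger, -0.78 ± 0.09 and -0.65 ± 0.08. All 3 of those probe sets are of a type open to cross-hybridization, and when such probe sets were left out, the one remaining that had the highest level, at 4.81, changed by -0.04 (adjusted p = 0.787 with limma). Cofilin Cfl1 (-0.22, adjusted p = 0.0741 with limma), profilin Pfn1 (-0.22, adjusted p = 0.0773 with limma) and gelsolin Gsn (-0.32, adjusted p = 0.0601 with limma) did not pass. For Cfl1 and Gsn a dimmer probe set did, at -0.56 ± 0.09 and -0.53 ± 0.10.

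Of the 7 measured annexins, Anxa2, Anxa5, Anxa6 and Anxa7 fell and 0 rose. Anxa2, which pairs with S100a10 at the plasma membrane, gave 10.07 and 10.21 in control cells and 9.04 and 8.98 in Zfp322a RNAi cells, and fell to 45.7% of the control level (-1.13 ± 0.08, adjusted p = 0.001 with limma). Its dimmer probe sets changed by -0.58 ± 0.11, which passed, and by -0.13 ± 0.08, which did not, and the mean of all 3 changed by -0.61. Anxa5, the annexin used to stain phosphatidylserine on dying cells, went from 8.84 and 8.79 to 8.17 and 8.16 (-0.65 ± 0.07, adjusted p = 0.00204 with limma). Anxa6, which has a duplicated annexin core, went from 7.05 and 7.15 to 6.46 and 6.37 (-0.68 ± 0.08, adjusted p = 0.00249 with limma). On the probe sets used for these 3 genes, the arrays of a group lay within 0.14 of each other and the groups were at least 0.59 apart. Anxa7 went from 10.47 and 10.53 to 10.08 and 10.14 (-0.39 ± 0.07, adjusted p = 0.0106 with limma).

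Anxa1, known for its response to glucocorticoids, had both Zfp322a RNAi arrays above both control arrays, at 8.28 and 8.31 against 8.19 and 8.11, but did not pass (0.14 ± 0.07, adjusted p = 0.188 with limma). Anxa3 and Anxa4 changed by -0.06 ± 0.09 and -0.03 ± 0.07, and the 95% interval for Anxa4 ran from -0.19 to 0.13. That interval holds for the probe set used. Dimmer probe sets of Anxa4 changed by -0.275 ± 0.08 and -0.255 ± 0.12, with both Zfp322a RNAi arrays below both control arrays. They did not pass (adjusted p of 0.0588 and 0.193 in the limma fit of all probe sets). The S100 partners did not pass either. S100a10, the light chain of the Anxa2 complex, gave 11.33 and 11.11, then 10.99 and 10.85, without overlap (-0.30 ± 0.10, adjusted p = 0.076 with limma), and passed with a variance trend (adjusted p = 0.00768 with limma) and with low values left out (adjusted p = 0.0251 with limma). S100a6 gave 9.21 and 9.14 against 9.19 and 9.06, with overlap (-0.05 ± 0.08).

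At focal adhesions and along stress fibres, Ablim1 and Vcl fell. Ablim1, an actin-binding LIM protein, gave 8.42 and 8.46 in control cells and 6.87 and 6.68 in Zfp322a RNAi cells, the lowest change of all 56 members (-1.67 ± 0.09, adjusted p = 0.000717 with limma, 31.5% of the control level remaining). A second probe set of Ablim1 went from 7.50 and 7.44 to 6.22 and 6.45, and 2 others, at levels of 4.42 and 3.44, did not pass. With the mean of all 4 the change was -0.71. Vcl, vinculin, gave 10.69 and 10.67, then 10.40 and 10.36 (-0.30 ± 0.07, adjusted p = 0.0219 with limma). Pxn, paxillin, came closest to the threshold among the members that did not pass (10.44 and 10.42 against 10.16 and 10.23, -0.24 ± 0.07, adjusted p = 0.0519 with limma). Tln1, talin, changed by -0.26 ± 0.08 (adjusted p = 0.0631 with limma). Lima1, Csrp1 and Zyx, which encode LIM proteins of actin filaments and adhesions, changed by -0.09 to 0.00 with overlapping groups. A second probe set of Zyx went from 7.12 and 7.11 to 6.63 and 6.75 and passed on its own (-0.42 ± 0.08, adjusted p = 0.0167 in the limma fit of all probe sets).

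Of the transcription factors, Srf and Mkl1 fell and Mkl2 did not pass. Srf gave 8.28 and 8.41 in control cells and 7.89 and 7.82 in Zfp322a RNAi cells, 71.2% of the control level (-0.49 ± 0.08, adjusted p = 0.00727 with limma). That probe set is of a type open to cross-hybridization, and the other probe set of Srf changed by -0.22, which did not pass (adjusted p = 0.0682 with limma when it stood for the gene). Mkl1, now named Mrtfa, gave 7.65 and 7.83, then 7.29 and 7.26 (-0.46 ± 0.08, adjusted p = 0.011 with limma). Mkl2, now named Mrtfb, gave 9.21 and 9.35, then 9.36 and 9.42, with the groups apart by 0.01 only (0.11 ± 0.08, adjusted p = 0.364 with limma).

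The remaining members lay at opposite ends. Tgm2, a transglutaminase that crosslinks proteins and also binds guanine nucleotides, gave 8.94 and 9.04 in control cells and 7.41 and 7.48 in Zfp322a RNAi cells and fell to 34.3% of the control level (-1.54 ± 0.07, adjusted p = 0.00065 with limma). Its 6 probe sets changed by -1.72 to -0.27, and 5 of them passed. Without the probe sets that can cross-hybridize, the change was -0.94. Ttn, the giant sarcomeric spring titin, stood at 5.80 and 5.83 in control cells and at 8.11 and 7.97 in Zfp322a RNAi cells, a rise of 4.68-fold (2.23 ± 0.08, adjusted p = 0.000294 with limma). A second probe set of Ttn rose from 5.53 and 5.68 to 7.24 and 7.27. The other 4 probe sets of Ttn, at levels from 4.07 to 5.40, changed by -0.16 to -0.01 and did not pass, and with the mean of all 6 the change was 0.59. The 8 markers of striated muscle showed no such rise: 0 rose, 2 fell (Myh6 and Tnni3), all 8 were below the median level of genes, and their summed linear level was 480.0 and 488.4 in control cells and 427.8 and 436.3 in Zfp322a RNAi cells.

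**Figure D3:**
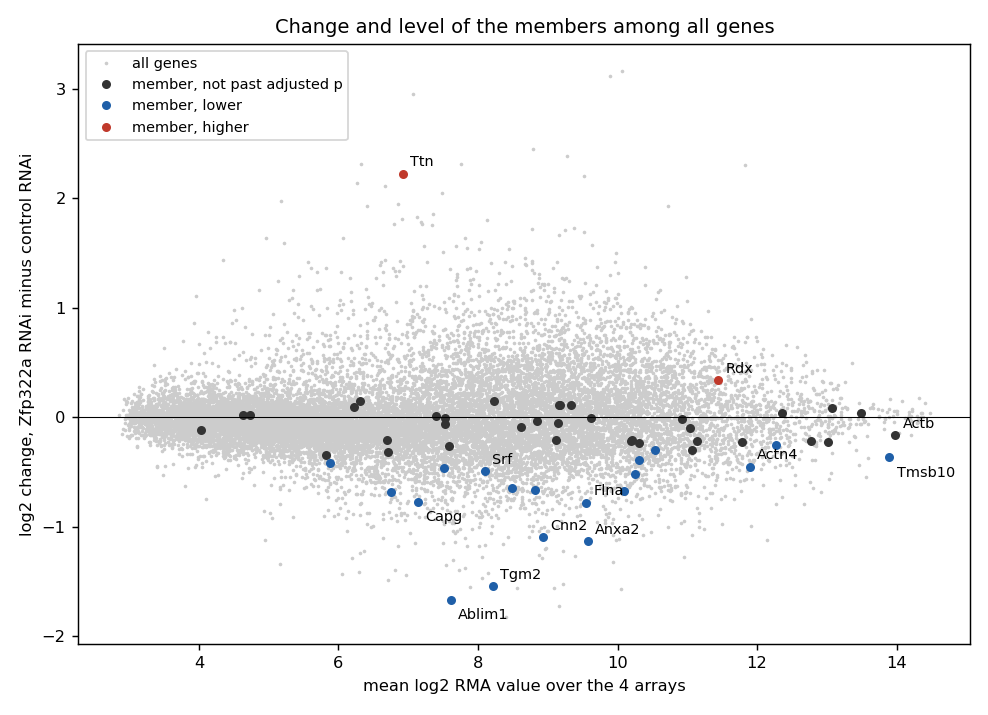
Log2 change (Zfp322a RNAi minus control RNAi) against the mean log2 RMA level over the 4 arrays for 18193 genes in grey, with the 56 members as large points coloured by call. Members that fell lie at levels from Vil1 at 5.88 to Tmsb10 at 13.90, and Ttn at 2.23 stands alone among the members above 0.34.

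Probe sets of the same gene did not always move alike. The 56 members had 140 probe sets, 38 members having more than 1, and of these probe sets 41 fell (29.3%, against 9.47% of all 45037 probe sets) and 3 rose (2.14%, against 10.6%). Among the 21 members called, 13 had a second probe set, and it was called the same way in 9. In Rdx, Anxa6, Vcl and Srf it did not pass, and in no member was it called the other way. Anxa6 was alike on all 4 of its probe sets, with changes of -0.69 to -0.57. Of the 35 members that did not pass, 8 had a dimmer probe set that fell (Actn1, Cfl1, Fscn1, Gsn, Myl12b, Tln1, Tpm1 and Zyx), and 0 had a dimmer one that rose.

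**Figure D4:**
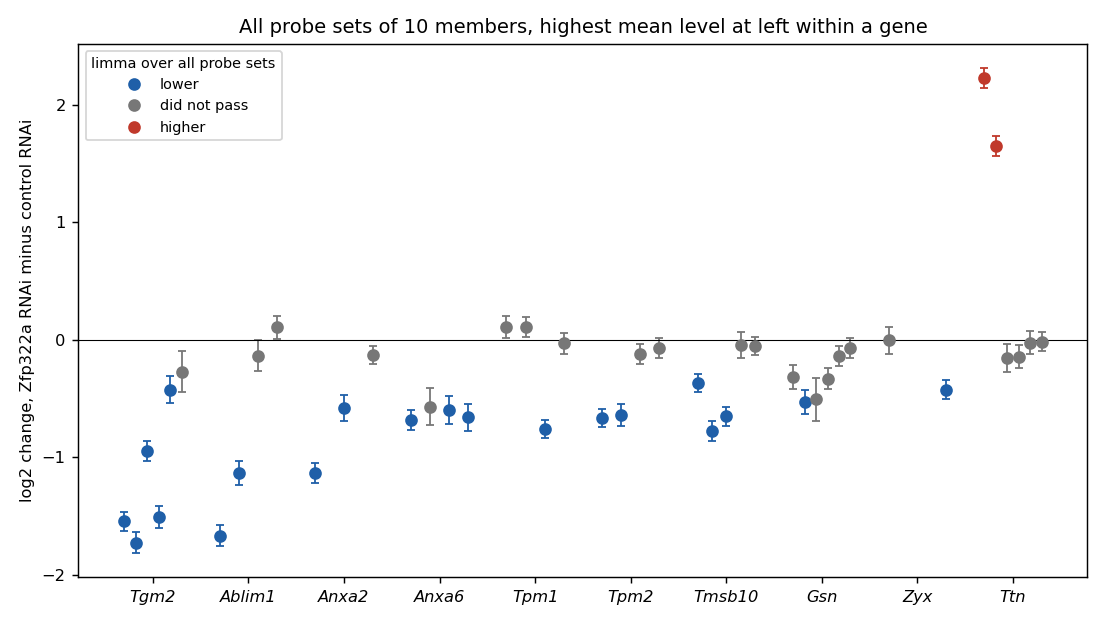
Log2 change of every probe set of 10 members, ordered from the highest mean level at left within each gene, with bars for the SE from limma and colours for the call over all 45037 probe sets. Anxa6 probe sets lie together between -0.69 and -0.57, whereas Tpm1 has a single falling probe set at -0.76 and Ttn has 2 rising and 4 that did not pass.

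Genes of the same processes outside the listed members were counted to set the list in context. Of 101 such genes in 5 lists, 92 were measured, of which 13 rose (14.1%) and 14 fell (15.2%), shares near those of all genes, 14% and 14.4%, with a median change of -0.053. Genes are therefore described singly, and nothing is read from the lists as such. Of 22 genes of actin nucleation, 2 rose and 4 fell. Cyfip2, a subunit of the WAVE complex, fell most (-0.86 ± 0.10, adjusted p = 0.00241 with limma), and its partner in that complex Abi1 rose most (0.72 ± 0.08, adjusted p = 0.0021 with limma). The 2 dimmer probe sets of Cyfip2, at -0.19 and -0.24, did not pass, and of the other probe sets of Abi1, 1 rose by 1.13 ± 0.08 and 2, at 0.34 ± 0.20 and 0.30 ± 0.09, did not pass. The formin gene Diaph2 fell (-0.47 ± 0.07) and the formin gene Fmnl2 rose (0.44 ± 0.07).

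Of 22 genes of filament turnover, 4 rose and 5 fell. Add3, an adducin that caps filaments in the membrane skeleton, went from 9.14 and 9.33 to 8.25 and 8.23 (-0.99 ± 0.09, adjusted p = 0.00142 with limma). Cfl2, the second cofilin, went from 9.62 and 9.63 to 10.46 and 10.43 (0.82 ± 0.07, adjusted p = 0.00125 with limma). Twf2, a twinfilin, fell (-0.62 ± 0.09), and Tmod3, which caps pointed ends, rose (0.58 ± 0.09). Other probe sets of Add3 changed by -0.51 to -0.09 and those of Tmod3 by -0.14 to 0.40, some without passing. Of 18 further adhesion genes 3 rose and 3 fell, led by the kinase Src (-0.50 ± 0.12), with Lims1 (-0.33 ± 0.07) and the integrin-linked kinase Ilk (-0.28 ± 0.08) lower and the integrin subunit Itgb1 (0.32 ± 0.07) higher. The second probe sets of Lims1 and Itgb1, at 0.21 ± 0.09 and 0.03 ± 0.08, did not pass, nor did any dimmer one. Apart from the probe set used, those of Lims1 changed by -0.22 to 0.28 and those of Itgb1 by -0.20 to 0.03. Of 11 other annexin and S100 genes 0 rose and 2 fell, Anxa8 (-0.50 ± 0.10) and S100a16 (-0.34 ± 0.08).

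The list of 19 other genes known as SRF targets had 4 that rose and 0 that fell. It holds immediate early genes, secreted matrix-associated proteins and other genes, such as the actins Acta1 and Actc1 and the integrin subunit Itga5. Of all genes, 14% rose and 14.4% fell. The median of the list was 0.085, and nothing is read from so short a list as such. Acta1, Actc1, Fhl1, Fhl2, Vasp and Itga5 changed by -0.130 to -0.095 and did not pass. Tgfb1i1, Filip1l, Ankrd1 and Mcl1 changed by 0.035 to 0.215 and did not pass either. Ctgf, a matricellular protein now named Ccn2, went from 10.11 and 10.17 to 11.10 and 11.11 (0.96 ± 0.07, adjusted p = 0.00103 with limma). Thbs1, thrombospondin 1, rose by 0.62 ± 0.07, the immediate early gene Fos by 0.33 ± 0.08 and Cyr61, now named Ccn1, by 0.28 ± 0.08. A second probe set of Thbs1, at a like level, gave 4.81 and 4.85 in control cells and 4.85 and 4.81 in Zfp322a RNAi cells, with no difference in mean. On the probe sets used for these 4 genes both Zfp322a RNAi arrays lay above both control arrays. The difference between this list and the members was not tested.

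**Figure D5:**
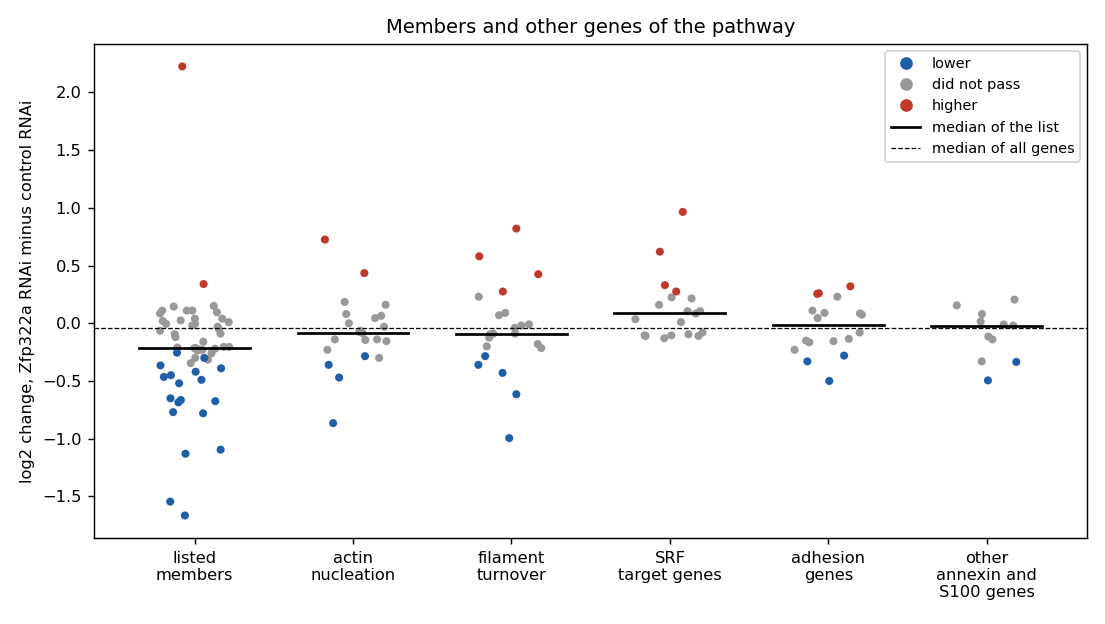
Log2 change of each measured gene for the 56 members and for 5 lists of other genes of the pathway, with a bar at the median of each list and a dashed line at the median of all genes, -0.040. The members centre on -0.215, the other lists between -0.090 and 0.085, and colours give the call in limma.

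Markers of cell types were read beside these groups. All 7 markers of mES cells lay at or above the median level of genes. Their summed linear level was 57920 and 56260 in control cells and 51690 and 51700 in Zfp322a RNAi cells. Tdgf1 and Utf1 fell and 0 rose. Pou5f1 (-0.055), Nanog (-0.025), Sox2 (0.015) and Zfp42 (0.060) did not pass, nor did Dppa5a (-0.160), the brightest of the list. A linear sum is weighted to the brightest genes of its list. The 8 fibroblast markers, all below the median level of genes, summed to 512.8 and 506.0 in control cells and 371.2 and 372.0 in Zfp322a RNAi cells. Of these markers 2 fell, Pdgfrb and Thy1, which had the highest levels of the list, and the other 6 did not pass. The 6 smooth muscle markers summed to 622.4 and 644.5 against 468.7 and 530.6, with Des and Smtn lower and 0 higher. Of 5 trophoblast markers 1 fell, Krt7, and their sums were 829.0 and 720.2 against 639.1 and 603.5. The brightest of them, Tfap2c, changed by -0.385 and did not pass (adjusted p = 0.0758 with limma), and Cdx2, Elf5 and Hand1 had overlapping groups. Of 8 markers of extraembryonic endoderm 5 rose and 1 fell, with Gata6 at 6.63 and 6.49 against 7.96 and 8, and their sums were 917.7 and 1010 against 1089 and 1062. Of these markers 6 lay below the median level of genes. The other risers, Sox17, Amn, Cubn and Dab2, lay at levels of 6.0 to 6.3 and rose by 0.30 to 0.46. Of all genes, 14% rose. The sums of every list other than extraembryonic endoderm were lower on both Zfp322a RNAi arrays than on both control arrays. Because a few bright genes set such sums, they do not show that a list fell as a whole. The part of other cell types in the falls and rises of the members was not tested.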

How the data were processed

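Log2 values for 45037 probe sets were deposited by the authors, who made them with RMA (version not given in the sources used here), and were used unchanged. Quantile normalization makes the arrays alike in distribution, so that a shift of all genes in the same direction would not appear. Gene names came from the platform annotation of the probe sets (34945 with 1 symbol, 932 with several, 9160 with none). Symbols were updated through the RefSeq gene table, matching 34741 of them. The labels give 3 days of puromycin, the study's methods a longer selection, and the value of the labels is used.

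The probe set of highest mean stood for each of 18193 genes, without a filter on low values. The model was limma 3.58.1 under R 4.3.3, with group as its only term in lmFit, then eBayes, and Benjamini-Hochberg adjustment over all genes. With 2 arrays against 2, the smallest two-sided p that exact permutation allows a gene is 0.333. The procedure was tested on simulated data. The table held 0 control probe sets for RNA quality. Alternatives were array centring, quantile normalization, a variance trend, robust moderation, a filter on low values, other choices of probe set, a replicate block, leaving out each array and a 1.5-fold rule. Promoter windows came from RefSeq (GRCm38.p6). The members and lists were chosen with earlier results of these data known. Every member is named, with each array for members past an adjusted p of 0.05 and 1.5-fold and for the member of highest level in classes without such a member, and at most 4 called genes are named per pathway list. Array values of other members, and of other genes, were added after they were seen. A further pathway list is not reported here.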

Additional observations from a re-analysis of the deposited data

How the results depend on the processing

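The median change of the members lay between -0.236 and -0.185 over the alternatives with all arrays and between -0.220 and -0.188 without 1 array. With a variance trend 31 members fell (55.4%, against 17.5% of all genes), compared with 19 (33.9%, against 14.4%), and with a 1.5-fold change required, with or without the test, 10 fell and 1 rose. The count that rose was 1 with low values left out (Ttn lies under the median level), with probe sets of a gene averaged and with the replicate block. The count that fell was 18 to 27 (32.1% to 60.0%, against 11.5% to 29.9% of all genes) under the other settings with all arrays except the replicate block, with which 14 fell (25.0%, against 6.35% of all genes) and 2643 genes were called in place of 5164, and Mkl1, Rdx, Srf, Tmsb4x, Vcl and Vil1 missed the threshold. Deviations of same-numbered arrays correlated at 0.04, so that the numbers were not taken as pairs. Without any 1 array, limma called between 0 and 0 members lower and between 0 and 0 higher, and each remaining lone array was assumed to vary like the other group; 23 to 28 members (41.1% to 50.0%) and 28.3% to 31.7% of all genes then had an unadjusted p under 0.05. With the mean of all probe sets, Ablim1 (-0.71), Anxa2 (-0.61), Tagln2 (-0.43), Tpm2 (-0.37), Rdx (0.17) and Ttn (0.59) moved by more than 1.5 times, with no change of direction. Of these, Rdx no longer passed (adjusted p = 0.135 with limma). Of members that did not pass, 14 did so with a change below 0 under at least 1 alternative: Actb, Actn1, Cfl1, Fscn1, Gsn, Msn, Myh9, Myh10, Myl12b, Pfn1, Pxn, S100a10, Tln1 and Zyx. The cause was not tested. The number of arrays, not a depth, limits what can be detected.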
